A study of Homo sapiens with 2 samples.

Results

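The genes described here drive entry into mitosis and the attachment, checking and separation of chromosomes. The 40 members were taken by gene symbol from a list of G2/M and spindle checkpoint genes, out of 24462 symbols in the deposited counts. Messenger RNA was read from its 3' end in A549, a long-established lung adenocarcinoma cell line of human origin, so CPM below is a level of 3' ends and is not divided by length. The study holds 2 libraries: 1 of cells transfected with control siRNAs, and 1 in which siRNAs targeted ADGRF4, an adhesion G protein-coupled receptor. Both groups are the same line grown in the same medium. For the siRNAs, no sequence, dose or time after transfection is given in the sources used here. Neither treatment has a replicate check, so no test between them was made. Each interval in parentheses is an exact 95% interval of a ratio of 2 counts, and it covers counting error only. Where counts are given in pairs, the control library comes first, and folds are ratios of scaled CPM.

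During G2, CDK1 bound to A- and B-type cyclins becomes active and starts mitosis. Kinetochores then form on centromeres, capture spindle microtubules, and signal through the spindle checkpoint until every chromosome is attached. The anaphase-promoting complex, which the checkpoint restrains until then, marks cyclin B and securin for destruction, and the cell divides by a contractile ring. Most of these genes are transcribed mainly in G2 and M phase, so their RNA level in a culture also depends on how many cells are in those phases. In bulk RNA, fewer cells in G2 or M and less of these RNAs per cell cannot be told apart.

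Total counts were 10396047 (control siRNAs) and 9825320 (ADGRF4 siRNAs, called the knockdown library), of which the members took 0.717% and 0.889%. ADGRF4 was read 3 times after control siRNAs (0.619 to 8.77, exact Poisson 95% interval) and 1 time after its own siRNAs (0.0253 to 5.57), so its loss was not detectable at this depth and the silenced gene does not check the labels. Each of the 5 epithelial markers looked up was read in both libraries, and they did not go one way: KRT18 had 58990 and 79367 counts, KRT8 13756 and 7529, CDH1 1218 and 239, KRT19 140 and 139, and EPCAM 75 and 38. All 4 genes taken as markers of the A549 line were read in both, at a summed 5436 and 2102 CPM, and the part of that difference in the members' values was not tested. Summed counts were 0 and 4 for 5 endothelial markers, 50 and 52 for 5 fibroblast markers and 275 and 207 for 5 leukocyte markers. Most of these came from COL1A1 (50 and 45) among the fibroblast markers and CD68 (260 and 198) among the leukocyte markers. CD3E, PDGFRB and LUM were at 0 in both. The 5 markers of alveolar type 2 cells, the cell type this tumour line is often likened to, summed to 209 and 295 counts. Of these, ABCA3 had 203 and 293, NKX2-1 6 and 0 and SFTPC 0 and 2, and SFTPA1 and SFTPB were at 0 in both libraries.

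Many promoters of mitotic genes carry an element known as the cell cycle genes homology region (CHR), through which the DREAM and MYBL2-MuvB complexes act, and upstream CCAAT boxes bound by NF-Y. RefSeq promoter windows (build GRCh38.p14, 250 bases before to 50 bases after the annotated start) were matched by symbol for 33 of the 40 members. The windows shown are those of the 5 members with a matched promoter and the largest ratios of at least 2-fold in either direction. They lie at chr1:163321704-163322003 on the plus strand for NUF2, chr12:53268049-53268348 on the plus strand for ESPL1, chr15:59104896-59105195 on the plus strand for CCNB2, chr2:110678014-110678313 on the minus strand for BUB1, and chr16:23678639-23678938 on the plus strand for PLK1. Capitals mark matches to the CHR letters TTTGAA or TTCGAA and to CCAAT, each on either strand.
NUF2: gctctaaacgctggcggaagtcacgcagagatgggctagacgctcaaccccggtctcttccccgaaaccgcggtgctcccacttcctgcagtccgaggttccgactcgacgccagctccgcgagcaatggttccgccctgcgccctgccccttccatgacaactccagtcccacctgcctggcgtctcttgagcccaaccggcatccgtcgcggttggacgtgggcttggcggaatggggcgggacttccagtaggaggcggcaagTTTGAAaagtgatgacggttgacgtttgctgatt
ESPL1: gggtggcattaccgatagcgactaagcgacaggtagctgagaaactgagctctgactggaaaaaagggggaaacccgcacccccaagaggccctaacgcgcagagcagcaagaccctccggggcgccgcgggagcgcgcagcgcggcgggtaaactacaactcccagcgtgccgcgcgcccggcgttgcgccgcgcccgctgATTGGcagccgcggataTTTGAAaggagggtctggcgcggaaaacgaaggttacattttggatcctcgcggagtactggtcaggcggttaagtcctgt
CCNB2: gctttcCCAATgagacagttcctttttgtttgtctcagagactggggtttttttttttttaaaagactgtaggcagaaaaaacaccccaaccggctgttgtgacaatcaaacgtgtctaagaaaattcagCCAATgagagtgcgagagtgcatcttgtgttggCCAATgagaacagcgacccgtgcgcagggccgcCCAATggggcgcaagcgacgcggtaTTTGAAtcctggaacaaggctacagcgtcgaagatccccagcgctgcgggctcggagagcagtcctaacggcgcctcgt
BUB1: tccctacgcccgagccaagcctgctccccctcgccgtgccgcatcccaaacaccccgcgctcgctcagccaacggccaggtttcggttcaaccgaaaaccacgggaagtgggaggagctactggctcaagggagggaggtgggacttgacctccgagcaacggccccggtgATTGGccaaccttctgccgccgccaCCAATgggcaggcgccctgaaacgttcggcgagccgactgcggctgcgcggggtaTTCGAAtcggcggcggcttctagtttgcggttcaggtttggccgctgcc
PLK1: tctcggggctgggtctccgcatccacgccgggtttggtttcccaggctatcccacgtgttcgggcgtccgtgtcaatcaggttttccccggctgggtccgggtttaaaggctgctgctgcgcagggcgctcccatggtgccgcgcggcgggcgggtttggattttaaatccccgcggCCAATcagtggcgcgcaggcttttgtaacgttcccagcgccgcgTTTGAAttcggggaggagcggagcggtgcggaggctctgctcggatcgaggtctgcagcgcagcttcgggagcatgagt

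CCNB2, ESPL1, BUB1 and PLK1 each held at least 1 CCAAT beside a CHR match, and NUF2 held a CHR match alone. CCNB2 had 4 CCAAT matches and BUB1 had 2. PLK1, which was higher after ADGRF4 siRNA, thus carried the same pair of elements as CCNB2, ESPL1 and BUB1, which were lower. Over the 33 windows, TTTGAA or TTCGAA was present in 24 (72.7%), against 16.6% of all 27305 promoters and 11% of the 8788 promoters of compared symbols. CCAAT was present in 26 (78.8%), against 35.7% of all promoters and 37.0% of those of compared symbols. Both were present in 20 windows (60.6%), against 6.58% and 4.87%.

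**Figure D1:**
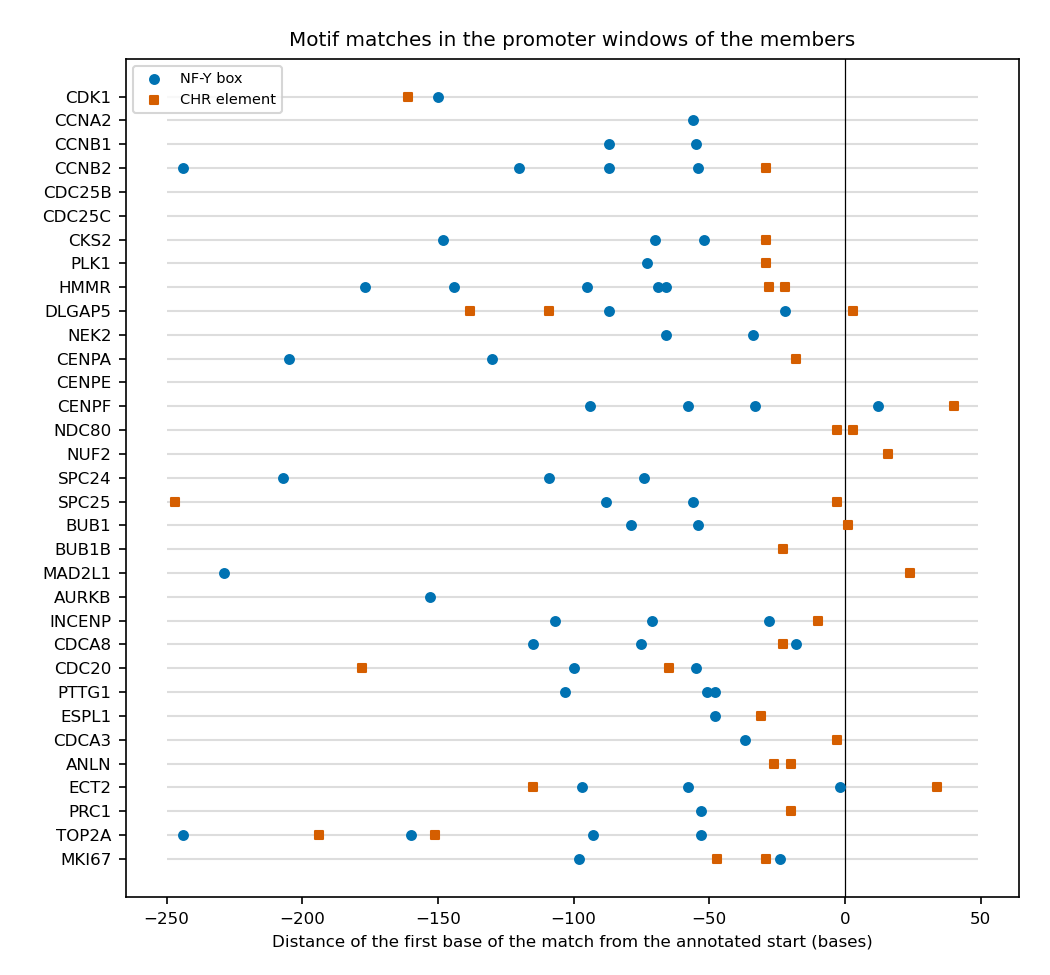
Matches to the CHR letters (squares) and to the NF-Y box (circles) on either strand, by distance in bases of the first base of the match from the annotated start, for the 33 members with a promoter window. Of the windows, 24 held a CHR match and 26 an NF-Y box.

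Members with and without a CHR match lay on both sides. Of the 24 compared members with a CHR match, 7 reached 1.5-fold lower after ADGRF4 siRNA and 2 reached 1.5-fold higher, with a median log2 ratio of -0.34. The same limit was reached downward by 22.3% and upward by 21.1% of all compared symbols. Of the 8 without, 1 was lower and 2 higher, with a median of -0.02. A match is a run of letters, not a shown binding site, and these counts were not tested.

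As a group, the members were lower in the median and higher in the sum, and the lower median went to -0.03 when ratios were centred on 3' GC content, as described below. Symbols were compared where the mean over both libraries was 30 counts or more, as log2 of knockdown over control CPM after adding 1 CPM, with CPM (a count relative to its library's total) scaled by the TMM method. That left 39 members, all but SPC24. Of these, 10 were at least 1.5-fold lower after ADGRF4 siRNA (25.6%, against 22.3% of all 11771 compared symbols), 5 were higher (12.8%, against 21.1%) and 24 lay between. The share of lower members was near the background, and that of higher members was below it. At 2-fold, 6 were lower (15.4%, against 10.4%) and 1 was higher (2.56%, against 7.84%). The median log2 ratio was -0.24 against -0.02 for all compared symbols, and 26 of the 39 ratios lay below 0 (66.7%, against 51.0%). The counting interval excluded no difference for 30 of the 39 members. That count was not made for all compared symbols, so it is not a result particular to the members. The SD of the members' ratios was 0.62, against 0.77 over all compared symbols.

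**Figure D2:**
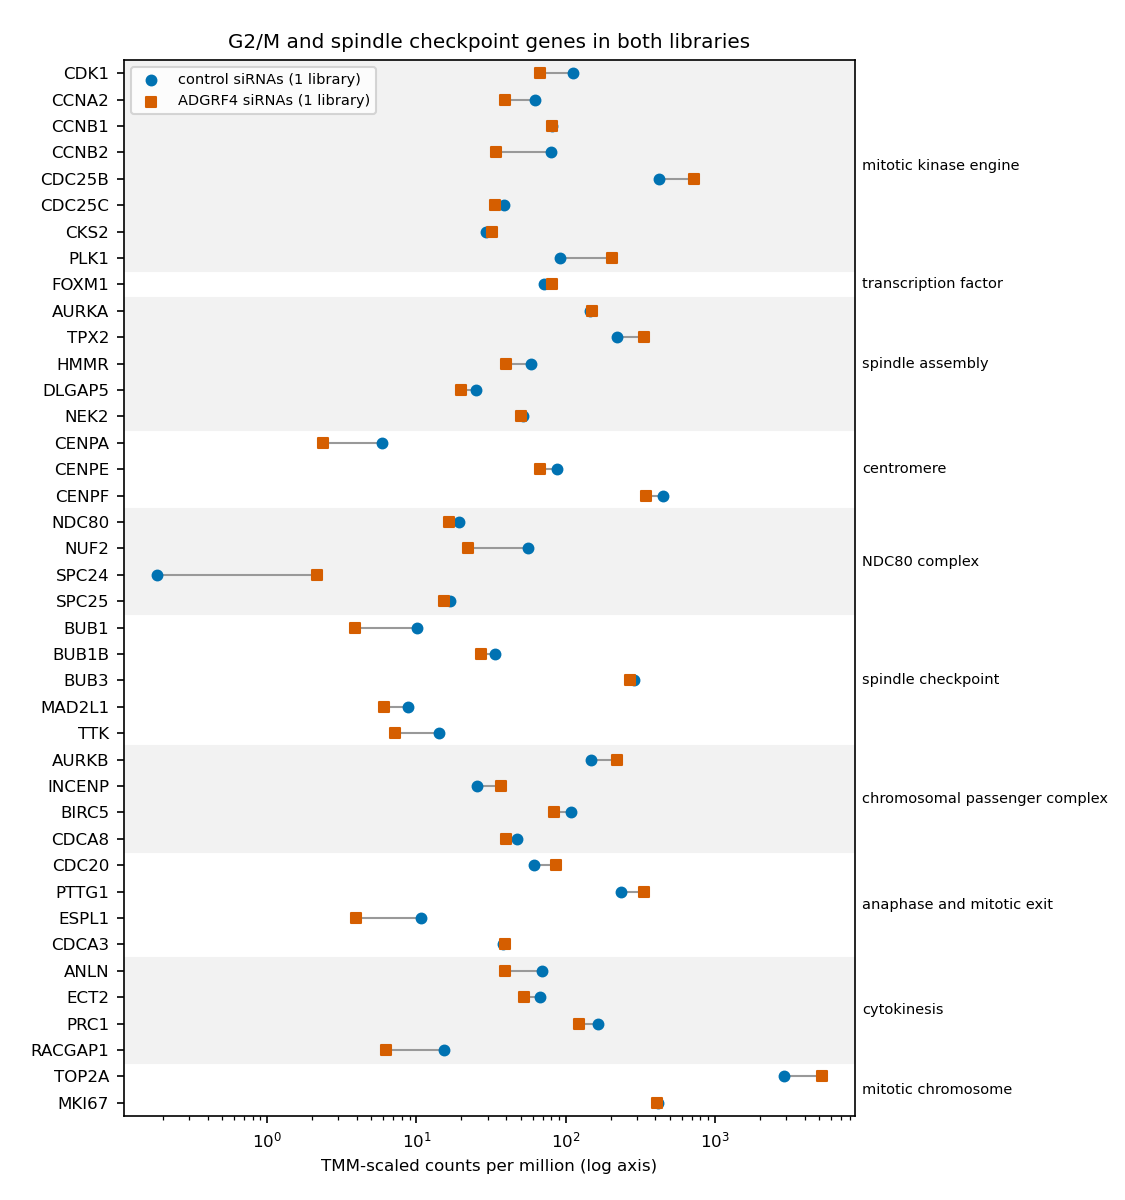
TMM-scaled CPM of the 40 members in the control siRNA library (circles) and the ADGRF4 siRNA library (squares), 1 library each, on a log axis and grouped by role. TOP2A lies highest in both libraries, and SPC24 lies lowest at 0.183 and 2.14 CPM.

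TOP2A, the topoisomerase that untangles sister chromatids, held the largest share of the sum. Its counts were 32025 (control) and 48570 (knockdown), or 42.9% (exact 95% interval 42.6 to 43.3) and 55.6% (55.3 to 55.9) of all member counts. It was 1.78-fold higher (1.75 to 1.80). The summed members were 1.37-fold higher (1.36 to 1.39), and without TOP2A they were 1.07-fold higher (1.05 to 1.08). The order of the members by CPM was alike in both libraries (Spearman's rho 0.96 over 40 genes, a description). MKI67, the proliferation antigen Ki-67 that coats mitotic chromosomes, had 4546 and 3802 counts, or 415 and 407 CPM, and its interval included no difference (1.02-fold lower, 0.976 to 1.06).

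The kinases, cyclins and phosphatases that start mitosis went both ways: 3 of 8 reached 1.5-fold lower and 2 reached 1.5-fold higher. All compared symbols also went both ways, with 22.3% lower and 21.1% higher. After centring on 3' GC content, 1 of the 8 was lower and 2 were higher. CDK1, the mitotic kinase itself, was read 1227 times after control and 630 times after ADGRF4 siRNAs, 1.66-fold lower (1.51 to 1.83). CCNA2, cyclin A2, was read 685 and 364 times, 1.60-fold lower (1.41 to 1.83). These 2 kinase subunits lay close to each other, and neither reached 1.5-fold after the ratios were centred on the base composition of the 3' end, described below (log2 ratios of -0.45 and -0.36).

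The B-type cyclins separated. CCNB1 had 881 and 758 counts, or 80.5 and 81.2 CPM. CCNB2 had 879 and 317 counts, or 80.3 and 34 CPM, and was 2.36-fold lower (2.08 to 2.70). CCNB1 thus had about as many counts as CCNB2 in the control library and 2.39 times as many in the knockdown library. That within-library ratio does not depend on scaling, and it was 2.39-fold higher after ADGRF4 siRNA (2.02 to 2.81). It is among 7 such pairs that were chosen after the values were seen. The others are PLK1 and CDK1, CDC25B and CDC25C, NUF2 and NDC80, BUB1 and BUB1B, AURKB and BIRC5, and PTTG1 and ESPL1. The ratios of these pairs and their intervals are descriptions, not tests.

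PLK1 and CDC25B, which act upstream of CDK1, lay on the other side. PLK1, the polo-like kinase that promotes mitotic entry and spindle assembly, was read 1007 and 1905 times, 2.22-fold higher (2.05 to 2.40). CDC25B, a phosphatase that removes inhibitory phosphates from CDK1, was read 4614 and 6806 times, 1.73-fold higher (1.67 to 1.80). Its relative CDC25C, with 423 and 315 counts, was 1.14-fold lower (0.987 to 1.33), and the count of CDC25B over that of CDC25C was 10.9 (control) and 21.6 (knockdown). The count of PLK1 over that of CDK1 was 0.821 (control) and 3.02 (knockdown), 3.68-fold apart (3.25 to 4.17). These 2 genes differ in 3' GC content (54.0% and 33.3%), and after GC centring their log2 ratios lay closer, at 0.66 and -0.45. CKS2, a small CDK-binding subunit, was read 321 and 301 times, 1.10-fold higher (0.937 to 1.29). FOXM1, the transcription factor that activates many of these genes in G2, was read 786 and 754 times, 1.13-fold higher (1.02 to 1.25). That direction turned after GC centring, where the log2 ratio of FOXM1 was -0.32.

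Some of these genes share exon bases with a gene on the other strand, and no strand setting for the counting is given in the sources used here. EXOSC9, whose exons in GENCODE 29 share 254 bases with those of CCNA2, had 676 and 338 counts, 0.987 and 0.929 times those of CCNA2. ERN2, opposite PLK1 with only 42 shared exon bases, had 866 and 1803 counts, 0.860 and 0.946 times those of PLK1. FAM53C, opposite CDC25C, had 366 and 278 counts, 0.865 and 0.883 times those of CDC25C. The exons of FAM53C and CDC25C share 293 bases, but these genes do not meet tail to tail. These 3 members and their neighbours thus had like counts and like ratios. Without strand, reads within the shared bases of a pair cannot be told apart, so the values of CCNA2, PLK1 and CDC25C are uncertain to that extent. How many of their reads lie in those bases was not tested. ITFG2, opposite FOXM1, had 2 counts in each library.

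**Figure D3:**
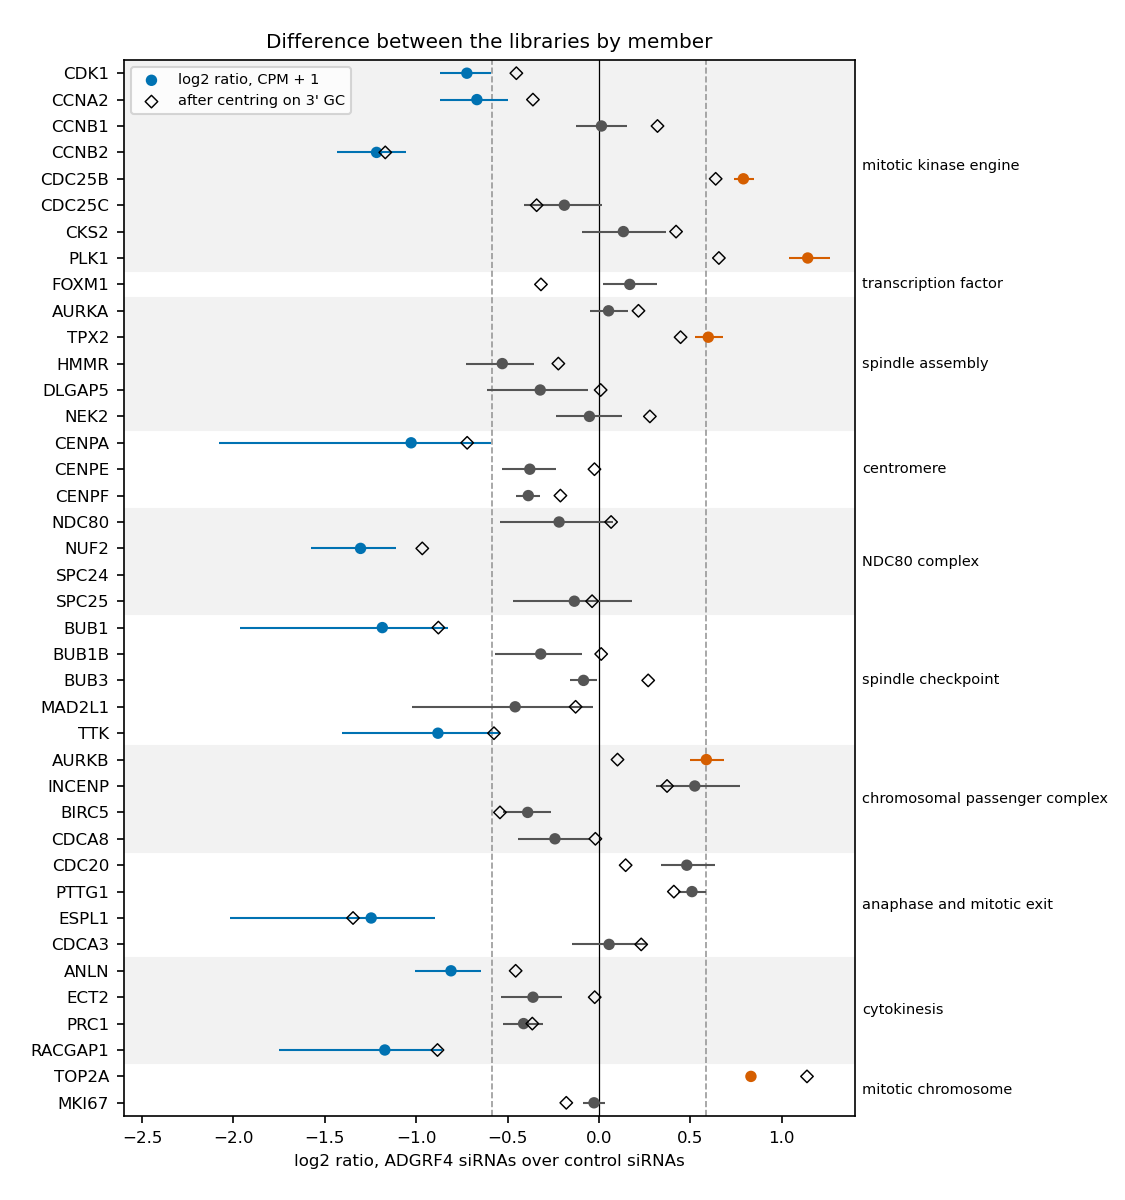
Log2 ratio of ADGRF4 siRNA over control siRNA for the 39 compared members (filled circles, from CPM + 1), with horizontal lines for the exact 95% counting interval of the ratio without the added CPM, and open diamonds for the ratio after centring on 3' GC content. Dashed lines mark 1.5-fold; 10 members lie at or beyond the lower line (blue) and 5 at or beyond the upper (orange).

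Of 5 spindle assembly genes, 1 reached 1.5-fold higher and 0 reached 1.5-fold lower. Among all compared symbols, 21.1% were higher and 22.3% lower. TPX2, which targets Aurora A to microtubules, was read 2418 and 3124 times, 1.52-fold higher (1.44 to 1.60). AURKA, Aurora A itself, had 1595 and 1410 counts, or 146 and 151 CPM, and its interval included no difference (1.04-fold higher, 0.965 to 1.11). HMMR, a spindle pole protein, was 1.45-fold lower (1.28 to 1.66), DLGAP5, which stabilises spindle microtubules, 1.26-fold lower (1.04 to 1.53), and NEK2, a centrosome kinase, 1.04-fold lower (0.917 to 1.18). After GC centring the log2 ratios of DLGAP5 (0.01) and NEK2 (0.28) were no longer below 0, and that of AURKA was below 0 under total-count scaling (-0.10). The call of TPX2 ended under total-count and upper-quartile scaling and after GC centring (lowest log2 ratio 0.45).

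All 3 centromere genes were on the lower side, as were 51.0% of all compared symbols. Of the 3, 1 reached 1.5-fold lower, against 22.3% of all compared symbols. CENPA, the histone H3 variant that marks centromeres, was read 64 and 22 times, 2.48-fold lower (1.51 to 4.23). Its low count gives it the widest interval of the compared members, and with 5 CPM added its log2 ratio of -0.56 no longer reached 1.5-fold. SLC35F6, which shares 138 exon bases with CENPA on the same strand, had 738 and 384 counts. CENPE, a kinetochore motor, was read 955 and 624 times, 1.30-fold lower (1.18 to 1.45). CENPF, a large kinetochore protein, was read 4938 and 3217 times, 1.31-fold lower (1.25 to 1.37). After GC centring the log2 ratio was -0.72 for CENPA, -0.21 for CENPF and -0.03 for CENPE.

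The NDC80 complex binds microtubules at the outer kinetochore through 4 subunits, and their counts did not move together. NUF2 was read 613 and 206 times, 2.54-fold lower (2.16 to 2.99), the lowest log2 ratio among the compared members at -1.30. NDC80, its direct partner in the complex, was read 212 and 154 times, 1.17-fold lower (0.949 to 1.45). SPC25 was read 184 and 142 times, 1.10-fold lower (0.883 to 1.38). The intervals of NDC80 and SPC25 included no difference, and the interval of NUF2 overlapped neither. After GC centring the log2 ratio was -0.97 for NUF2, 0.07 for NDC80 and -0.04 for SPC25.

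Within the library, NUF2 had 2.89 times the counts of NDC80 in the control and 1.34 times in the knockdown library, a 2.16-fold drop (1.65 to 2.83). SPC24, the remaining subunit, was barely read, with 2 and 20 counts, and was not among the compared symbols. Its ratio was 11.7-fold higher with an interval from 2.85 to 104.

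All 5 spindle checkpoint genes lay on the lower side before GC centring and 3 of them after it, and 2 reached 1.5-fold lower, where 22.3% of all compared symbols did. Their median 3' GC content was 29%, and their median log2 ratio was -0.46 before and -0.13 after centring. BUB1, a kinase that recruits checkpoint proteins to kinetochores, was read 110 and 36 times, 2.61-fold lower (1.77 to 3.91). TTK, also known as MPS1, the kinase at the top of the checkpoint, was read 154 and 67 times, 1.96-fold lower (1.46 to 2.65). MAD2L1, which encodes the MAD2 protein that inhibits CDC20, was read 96 and 57 times, 1.44-fold lower (1.02 to 2.03). These 3 genes were the least read of the checkpoint group.

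The better read checkpoint genes differed less. BUB1B, which encodes BUBR1 of the mitotic checkpoint complex, was read 370 and 251 times, 1.26-fold lower (1.07 to 1.48). BUB3, the shared partner of BUB1 and BUBR1, was read 3142 and 2525 times, 1.06-fold lower (1.01 to 1.12). BUB1 relative to BUB1B went from 0.297 to 0.143 times, 2.07-fold lower (1.36 to 3.21). Named pseudogenes in GENCODE 29, which could take or give reads, exist for BUB1 and BUB3, and also for CCNB2, AURKA, DLGAP5, NEK2, CDC20 and MKI67, whose counts are uncertain to that extent. After GC centring the log2 ratio was -0.88 for BUB1 and -0.57 for TTK, which was then just short of 1.5-fold. It was -0.13 for MAD2L1, 0.01 for BUB1B and 0.27 for BUB3.

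The chromosomal passenger complex corrects wrong attachments, and its 4 members were split. AURKB, the Aurora B kinase, was read 1613 and 2070 times, 1.51-fold higher (1.41 to 1.61). INCENP, the scaffold that activates Aurora B, was read 279 and 346 times, 1.45-fold higher (1.24 to 1.71). BIRC5, which encodes survivin, was read 1195 and 775 times, 1.31-fold lower (1.20 to 1.44). CDCA8, which encodes borealin, was read 515 and 370 times, 1.19-fold lower (1.04 to 1.36).

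The kinase and its scaffold were thus higher, and the 2 subunits that place the complex on centromeres were lower, with intervals that do not overlap between these pairs. After GC centring the split was smaller, with log2 ratios of 0.10 for AURKB, 0.37 for INCENP, -0.02 for CDCA8 and -0.54 for BIRC5. The count of AURKB over that of BIRC5 was 1.35 (control) and 2.67 (knockdown). AURKB lay just at the limit of 1.5-fold, and its call ended under total-count and upper-quartile scaling, with 5 CPM added, and after GC centring.

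Among the genes of anaphase and mitotic exit, ESPL1 stood apart from the rest. ESPL1 encodes separase, the protease that cuts cohesin, and was read 118 and 37 times, 2.72-fold lower (1.87 to 4.05). PTTG1, securin, the inhibitor of separase, was read 2568 and 3118 times, 1.42-fold higher (1.35 to 1.5). CDC20, the activator of the anaphase-promoting complex that the checkpoint restrains, was read 674 and 805 times, 1.40-fold higher (1.26 to 1.55). The count of PTTG1 over that of ESPL1 was 21.8 (control) and 84.3 (knockdown), 3.87-fold apart (2.64 to 5.79). CDCA3, an F-box-like adaptor that promotes mitotic entry, was read 414 and 367 times, 1.04-fold higher (0.901 to 1.20). After GC centring the log2 ratio was -1.35 for ESPL1, 0.41 for PTTG1, 0.15 for CDC20 and 0.23 for CDCA3.

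All 4 cytokinesis genes were on the lower side, as were 51.0% of all compared symbols. Of the 4, 2 reached 1.5-fold lower, where 22.3% of all compared symbols did. RACGAP1, a component of centralspindlin, was read 167 and 58 times, 2.45-fold lower (1.81 to 3.37). ANLN, anillin, a scaffold of the contractile ring, was read 765 and 368 times, 1.77-fold lower (1.56 to 2.01). PRC1, which bundles microtubules of the central spindle, was read 1798 and 1149 times, 1.33-fold lower (1.24 to 1.44). PRC1-AS1, which overlaps PRC1 on the other strand, had 403 and 452 counts. ECT2, the exchange factor that activates RhoA at the cell equator, was read 740 and 489 times, 1.29-fold lower (1.15 to 1.45). The 4 genes together had a median log2 ratio of -0.61, the lowest of the role groups with at least 3 compared members. That median was -0.41 after GC centring, where ANLN (-0.46) no longer reached 1.5-fold and ECT2 was at -0.02.

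The members' ratios went with the base composition near the poly(A) site, as did those of all genes. This 3' GC content, taken over the final 300 bases of each gene's longest GENCODE 29 transcript, was found for all 40 members and for 94.6% of the compared symbols. Across the 39 compared members, Spearman's rho between this GC content and the log2 ratio was 0.49, and it was 0.46 across 11139 compared symbols. These are descriptions across genes of the same 2 libraries, and genes are not independent replicates.

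Of the 20 compared members with a 3' GC content below 35%, 8 reached 1.5-fold lower and 1 reached 1.5-fold higher, with a median log2 ratio of -0.42. All compared symbols in that range had a median of -0.32, with 32.3% lower and 5.38% higher. Of the 10 members at 46.7% GC or above, 0 were lower and 4 were higher (40%), with a median of 0.50. All compared symbols in that range had a median of 0.49, with 10.3% lower and 43.8% higher. The medians of the members thus lay close to those of other genes of like GC content at both ends. Single members of the GC-poor range lay far from it: after centring, NUF2 was at -0.97, RACGAP1 and BUB1 at -0.88, CENPA at -0.72 and TOP2A at 1.14. CCNB2 (43.0% GC) and ESPL1 (44.7% GC) were at least 2-fold lower without a GC-poor 3' end.

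**Figure D4:**
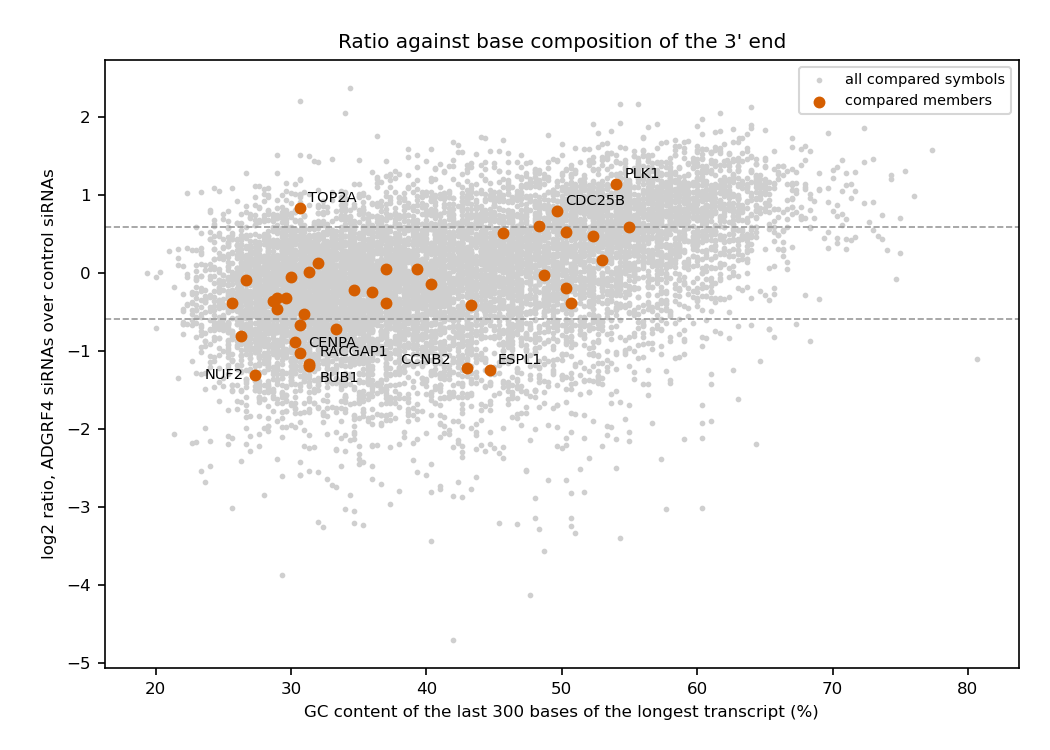
Log2 ratio of ADGRF4 siRNA over control siRNA (y axis) against 3' GC content in percent over the final 300 transcript bases (x axis), for all compared symbols with a value (grey) and the 39 compared members (orange). Dashed lines mark 1.5-fold; the 10 members at 46.7% GC or above have a median of 0.50, and the 20 below 35% a median of -0.42.

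When every ratio was centred on the median of its GC bin, the members were no longer lower in the median (-0.03). After centring, 6 of 39 members were at least 1.5-fold lower (15.4%, against 19.1% of all symbols with a GC value) and 3 were higher (7.69%, against 15.2%). The 6 were NUF2, CCNB2, ESPL1, BUB1, RACGAP1 and CENPA, the same genes that were 2-fold lower before centring. The 3 higher were TOP2A (log2 ratio 1.14), PLK1 (0.66) and CDC25B (0.64).

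The ratio also went with the number of counts. Of the 9 compared members with a mean below 300 counts, 5 were lower and 0 higher, with a median log2 ratio of -0.88. Among all compared symbols of that depth, 27.1% were lower and 18% higher, with a median of -0.12. Of the 11 members with a mean of 1000 counts or more, 0 were lower and 5 were higher (TOP2A, CDC25B, PLK1, TPX2 and AURKB), with a median of 0.51. Among all compared symbols of that depth, 13.6% were lower and 28.5% higher, with a median of 0.18. Spearman's rho between mean count and log2 ratio was 0.54 across the 39 members and 0.15 across all compared symbols. The part of count level and base composition in the members' ratios was not tested.

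Pooled with their regulators, other mitotic genes had a lower median log2 ratio than the members (-0.24), but not every list did. Before GC centring, the medians of the condensin and cohesin, spindle and cytokinesis, and kinetochore and checkpoint lists lay below -0.24. Those of the CDK1 regulators (0.06), the anaphase-promoting complex (0.02) and the DREAM, MYBL2 and NF-Y genes (-0.17) lay above it. Over 118 compared genes of 6 further lists, 46 reached 1.5-fold lower (39.0%, against 22.3% of all compared symbols) and 16 reached 1.5-fold higher (13.6%, against 21.1%), with a median log2 ratio of -0.38, or -0.23 after GC centring. Condensin and cohesin genes compact chromosomes and hold sisters together. Of 19, 7 were lower (36.8%, against 22.3% of all compared symbols) and 1 higher (5.26%, against 21.1%), with a median of -0.51. After GC centring, 5 of the 18 with a GC value were lower and 1 higher, with a median of -0.28. SMC4, a core condensin subunit, was read 4358 and 1769 times, 2.10-fold lower (1.99 to 2.22), NCAPG2 of condensin II was 2.43-fold lower and NCAPD2 of condensin I 2.04-fold lower, whereas NCAPH2 of condensin II was 2.0-fold higher (1.80 to 2.22). NCAPH2 has a 3' GC content of 64.0%, and after centring its log2 ratio of 0.15 no longer reached 1.5-fold, while those of NCAPG2 (-0.89), NCAPD2 (-0.95) and SMC4 (-0.78) did.

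Of 26 further spindle and cytokinesis genes, 10 were lower (38.5%, against 22.3% of all compared symbols) and 0 higher (against 21.1%). Their median was -0.52. After GC centring, 8 were lower and 1 higher, with a median of -0.30. DEPDC1B was 5.05-fold lower (3.29 to 8.05), FAM83D, a spindle protein, 3.71-fold lower (2.89 to 4.83), BORA, an activator of Aurora A and PLK1, 3.54-fold lower, and GAS2L3 3.0-fold lower. Of 33 further kinetochore and checkpoint genes, 16 were lower (48.5%) and 5 higher (15.2%), with a median of -0.36. After GC centring, 9 of the 30 with a GC value were lower and 4 higher, with a median of -0.21. MAD2L1BP, which silences MAD2, was read 88 and 9 times, 8.34-fold lower (4.20 to 18.8). DSN1 of the MIS12 complex was 3.25-fold lower (2.83 to 3.76), TRIP13, which remodels MAD2, 3.07-fold lower, and CENPU, an inner kinetochore gene, 2.33-fold lower.

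The upstream regulators went both ways, as did all compared symbols (22.3% lower and 21.1% higher). Of 11 further CDK1 regulators, 4 were lower (36.4%) and 5 higher (45.5%), with a median of 0.06, or 0.04 after GC centring. ENSA and ARPP19, which inhibit the phosphatase PP2A-B55 in mitosis, were 4.49-fold (3.94 to 5.12) and 1.83-fold lower, the checkpoint kinase CHEK2 was 3.08-fold lower, and CCNF, cyclin F, was 2.26-fold higher (2.03 to 2.52). After GC centring, ARPP19 (log2 ratio -0.52) no longer reached 1.5-fold, and the other 3 did. Of 15 subunits and partners of the anaphase-promoting complex, 5 were lower (33.3%) and 2 higher (13.3%). Their median was 0.02, or -0.14 after GC centring. ANAPC1 was 3.16-fold and CDC23 2.13-fold lower, while ANAPC7 was 2.02-fold and ANAPC15 1.94-fold higher. Of 14 genes of the DREAM complex, MYBL2 and NF-Y, 4 were lower (28.6%, against 22.3% of all compared symbols) and 3 higher (21.4%, against 21.1%), with a median of -0.17. Of the genes named, E2F4 was 3.03-fold lower, RBL2 1.94-fold lower, NFYC 1.80-fold lower and LIN37 1.85-fold higher. After GC centring, RBL2 (log2 ratio -0.55) and LIN37 (0.09) no longer reached 1.5-fold.

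**Figure D5:**
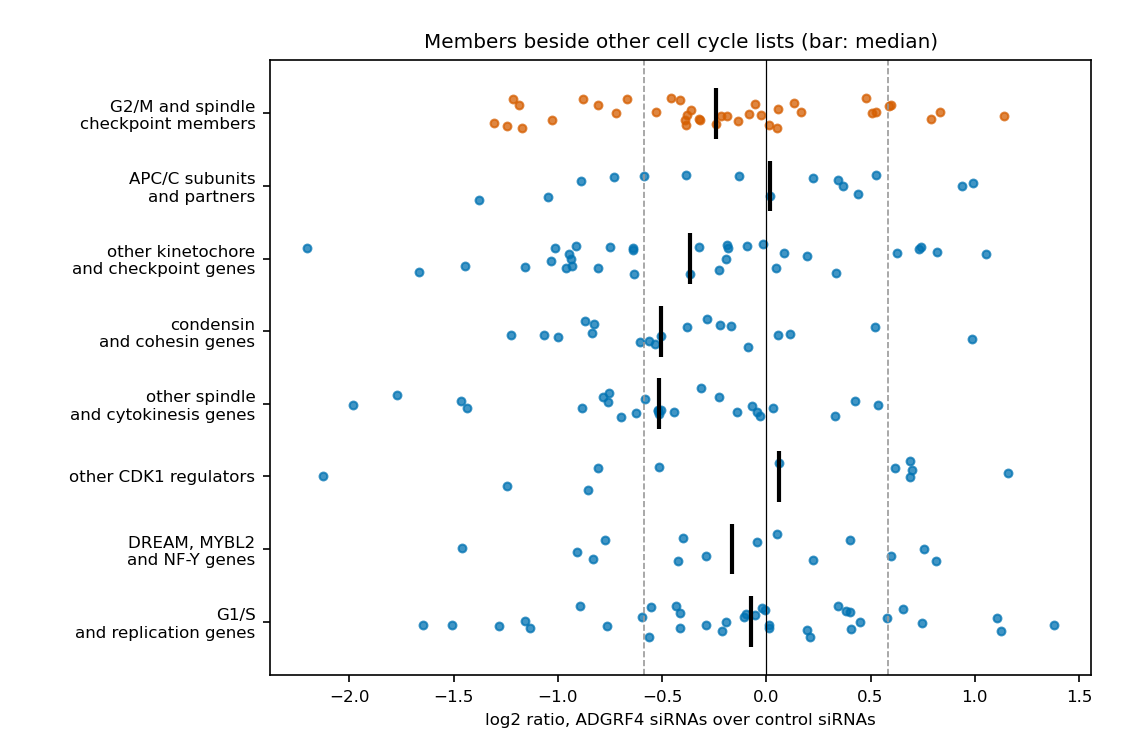
Log2 ratio of ADGRF4 siRNA over control siRNA for the compared genes of the G2/M and spindle checkpoint list (orange) and of 7 further cell cycle lists (blue), 1 point per gene, spread vertically at random; bars are medians and dashed lines mark 1.5-fold. The medians run from -0.52 for further spindle and cytokinesis genes to 0.06 for further CDK1 regulators.

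Genes of G1/S and replication, which peak earlier in the cycle, had a median log2 ratio of -0.08 over 36 genes, with 8 lower (22.2%, against 22.3% of all compared symbols) and 5 higher (13.9%, against 21.1%). After GC centring their median was 0.11, against -0.03 for the G2/M members. CCNE2, a G1/S cyclin, was 4.37-fold lower (2.54 to 8.0), MCM2, a helicase subunit, 2.95-fold lower and SLBP, which binds histone mRNA, 2.66-fold lower, while the helicase subunit MCM5 was 2.62-fold higher (2.42 to 2.84). MCM5 has a 3' GC content of 62.0%, and after centring its log2 ratio of 0.54 no longer reached 1.5-fold. The difference between the medians of the lists was not tested.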

How the data were processed

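Total RNA went into Lexogen QuantSeq libraries, per the labels' protocols. The values the authors deposited are raw counts in 25737 rows, each named by a gene symbol. Bowtie2, edgeR and build hg19 are named per the submitters' processing notes; for these, role and version, like annotation and strand, are not given in the sources used. No member was on more than 1 row; rows of other repeated symbols (286) were summed. Counts were scaled by TMM in edgeR 4.0.16 (R 4.3.3). Printed folds divide scaled CPM with no pseudocount added, with exact (Clopper-Pearson) 95% intervals; calls use log2 of CPM + 1 at a mean of at least 30 counts. Reads carry no molecular identifiers in these files, so repeat reads of 1 molecule cannot be told from reads of separate molecules. The intervals treat every read as independent, cover counting error only and may be too narrow. The ratio calculation was tested on simulated data.

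The members, gene lists and alternatives were chosen with earlier results of these data known. Every member is named; of each further list the 4 compared genes with the largest absolute log2 ratio are named. Older symbols were matched (1 of them after the data were seen). Alternatives were total-count, DESeq2 1.42.0 and upper-quartile scaling, pseudocounts of 0.1 and 5 CPM, other count limits (none, 10, 100), a 2-fold limit, and centring on 3' GC content in 20 bins. Leaving out TOP2A was added after the data were seen. Gene models are GENCODE 29 on GRCh38, so positions of the counted reads are not used. Python 3.11.15, pandas 2.3.3 and scipy 1.17.1 were used.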

Additional observations from a re-analysis of the deposited data

How the results depend on the processing

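The lower median of the members did not hold after centring on 3' GC content (-0.025, from -0.24). It lay between -0.39 and -0.19 under the other alternatives for which it was computed, leaving out TOP2A included. No member at least 1.5-fold apart changed sign. Of the members between, centring turned the sign of BUB1B, BUB3, DLGAP5, FOXM1, NDC80 and NEK2, total-count scaling that of AURKA, CCNB1, CDCA3 and CKS2, and upper-quartile scaling that of CCNB1. Of the 10 members at least 1.5-fold lower, 5 (BUB1, CCNB2, ESPL1, NUF2 and RACGAP1) kept that call under all 6 alternatives run for single members, and of the 5 higher, 3 (CDC25B, PLK1 and TOP2A) did. Centring on 3' GC content gave 6 lower and 3 higher members. The 2-fold limit gave 6 lower and 1 higher. Total-count scaling shifted every log2 ratio by -0.15 before the pseudocount, put the median compared symbol at -0.16 and gave 3 higher members; it also brought HMMR and MAD2L1 to 1.5-fold lower. Upper-quartile scaling gave 3 higher members. The log2 ratio of the summed members, 0.46 as reported, was 0.31 under total-count scaling, 0.44 under upper-quartile scaling and 0.097 without TOP2A. Depth limits the genes with few counts most: SPC24 could not be compared, and the intervals of CENPA, BUB1 and ESPL1 are wide. No paired analysis was possible because each group has 1 library. With 1 library per group, leaving out a library was not possible either.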

Other observations

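The near-equal counts of CCNA2 and EXOSC9, and of PLK1 and ERN2, led to a look at all genes that meet tail to tail. Pairs of compared symbols on opposite strands were taken from GENCODE 29. In 439 pairs the exons shared at least 200 bases, and in 616 pairs the genes ended within 5000 bases of each other without overlap. The counts of both genes agreed within 1.25-fold in both libraries for 69 of the sharing pairs (15.7%) and for 27 of the others (4.38%). The log2 ratios of the 2 genes of a pair differed by a median of 0.38 in the sharing pairs and 0.55 in the others. Whether reads of either strand were counted for both genes was not tested. The PLK1 and ERN2 exons share 42 bases in this annotation, fewer than the limit used here, and CDCA3 and GNB3 share 549 bases with 414 and 23 counts in the control library.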
